A study of Mus musculus with 6 samples.

Results

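The genes described here are the core machinery of programmed cell death: BCL2 family proteins, caspases, inhibitors of apoptosis, death receptors and their adaptors, and p53 with its inhibitors. They were chosen by symbol from a list of 38 genes, which was made with earlier results of these data known. Of the 38, 35 had a probe set annotated to that gene alone, and 31 of these passed the filter on low signals, out of 11332 genes that passed it and 18193 with such a probe set. The signals of Bax, Ripk1 and Trp53 were not analysed here, and these genes enter only the promoter counts. On the list, 10 genes act for survival and 28 for death.

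RNA was measured on one-colour Affymetrix arrays in HL-1 cells, a line of mouse atrial cardiomyocytes. Confluent cultures spent 8 hours in 1% oxygen (hypoxia, 3 arrays) or in 21% oxygen (normoxia, 3 arrays), and all 6 arrays come from the same line. Nothing in the labels says that the samples were separate cultures, so the p-values cover no more than the spread among these arrays, part or all of which may be technical. HL-1 descends from an atrial tumour of mice that express the SV40 large T antigen from the promoter of the atrial natriuretic factor gene, and large T binds p53, which limits the line as a model of p53 in heart muscle. Values are MAS5 signals, a linear measure of probe set brightness, and a log2 difference is hypoxia minus normoxia from limma. A gene rose or fell only where its Benjamini-Hochberg adjusted p was under 0.05.

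In the intrinsic pathway, BH3-only proteins sense damage and free BAX and BAK, which open the outer mitochondrial membrane unless BCL2, BCL-XL or MCL1 hold them. Cytochrome c then escapes and binds APAF1, the apoptosome forms and activates caspase-9, and executioner caspases dismantle the cell. In the extrinsic pathway, death receptors such as FAS recruit FADD and caspase-8 at the plasma membrane. p53 is a transcription factor that raises several of these genes after stress, among them Fas, Apaf1, Bbc3 and Pmaip1, and it also raises Mdm2, whose product marks p53 for destruction.

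None of the 31 tested members rose or fell after 8 hours of hypoxia: limma called 0, against 0.750% of all genes tested (85 genes, 75 higher and 10 lower). At an unadjusted p under 0.05, 6 members stood apart (19.4%), against 12.4% of all genes tested. Casp6, Fas, Mdm2, Apaf1 and Endog were the 5 higher in hypoxia, where 6.13% of all genes were higher by this measure. Htra2 was the 1 lower, where 6.30% of all genes were lower. The nearest to the threshold was Casp6, which encodes an executioner caspase, with a 2.27-fold higher signal in hypoxia and an adjusted p of 0.0971 (limma). Of 12 genes on a hypoxia check list 11 rose (91.7%), where 0.750% of all genes were called in either direction. Slc2a1, the glucose transporter GLUT1, was higher by 2.08 on the log2 scale (adjusted p = 0.00038, limma), and Vegfa was the exception. The check list was also made with earlier results of these data known, so its count is a description and no independent check of the treatment.

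**Figure D1:**
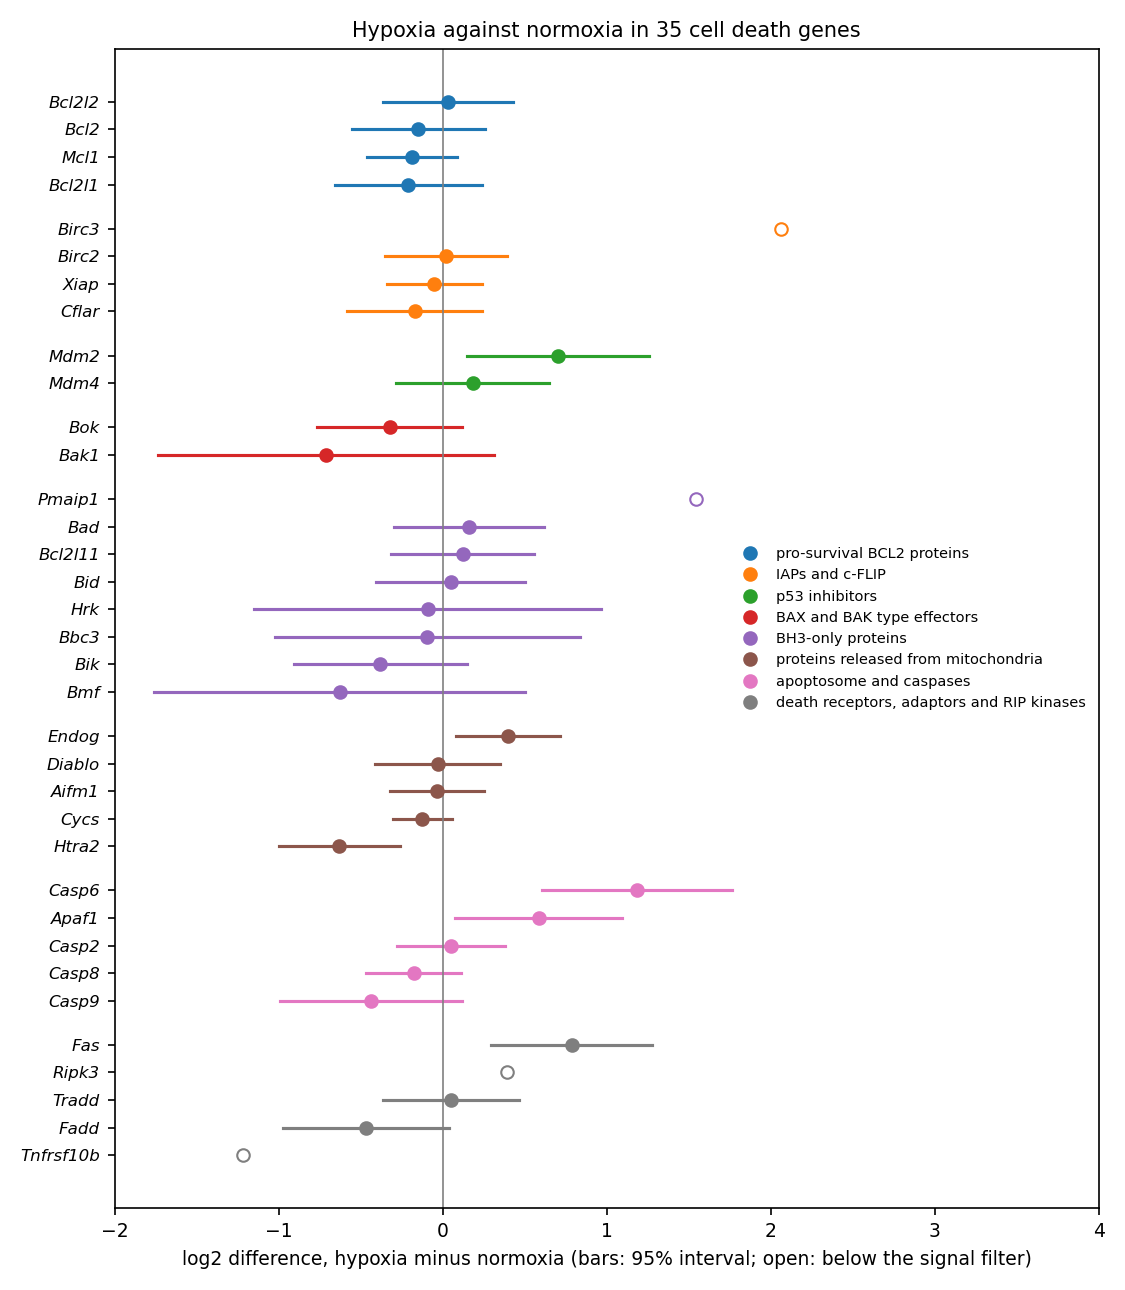
Log2 difference in signal between hypoxia and normoxia for the 35 measured members, grouped by role, with 95% intervals of the limma fit; open circles lie below the signal filter and have no interval. The intervals of Casp6, Fas, Mdm2, Apaf1 and Endog lie above 0 and that of Htra2 below it, and the other 25 tested members' intervals include 0.

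The median log2 difference over the 31 tested members was -0.05, beside -0.04 over all genes tested, and the median size regardless of direction was 0.18, beside 0.20. Of the 31, 13 lay above 0 and 18 below, beside 5032 above and 6300 below among all genes tested. The fits placed bounds on most genes. For 8411 of the 11332 tested the whole 95% interval lay within 1 log2 unit of 0 in either direction. Among the members this held for 22 of the 31. The other 9 were Mdm2, Bak1, Bmf, Bbc3, Hrk, Htra2, Apaf1, Casp6 and Fas, whose intervals reach 1 log2 unit or beyond. Casp6 alone among the tested members had a log2 difference of 1 or more, a size that 2.65% of all genes tested reached. In 7 members (22.6%) the 3 hypoxia arrays did not overlap the 3 normoxia arrays, against 18.1% of all genes tested. These were Casp6, Fas and Endog, higher in hypoxia, and Mcl1, Cycs, Htra2 and Casp8, lower in hypoxia.

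The promoters of the members that stood apart at the unadjusted level are shown because p53 or hypoxia-inducible factors could bind there. Sites elsewhere in the genes were not searched, and Htra2 is named only. Each is the 250 bases before the annotated start of transcription, from RefSeq on GRCm38.p6, on the strand of the gene. They lie at chr3:129901165-129901414 (+) for Casp6, chr19:34290409-34290658 (+) for Fas, chr10:91082744-91082993 (-) for Apaf1, chr2:30171274-30171523 (+) for Endog and chr10:117710759-117711008 (-) for Mdm2. Capitals mark ACGTG, the core bound by hypoxia-inducible factors, read on either strand (CACGT is its reverse complement), or, in Mdm2, a p53 half-site.
Casp6: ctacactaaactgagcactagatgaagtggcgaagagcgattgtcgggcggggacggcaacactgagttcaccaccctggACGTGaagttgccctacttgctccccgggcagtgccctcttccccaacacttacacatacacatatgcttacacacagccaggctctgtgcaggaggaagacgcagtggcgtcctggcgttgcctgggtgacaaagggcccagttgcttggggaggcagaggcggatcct
Fas: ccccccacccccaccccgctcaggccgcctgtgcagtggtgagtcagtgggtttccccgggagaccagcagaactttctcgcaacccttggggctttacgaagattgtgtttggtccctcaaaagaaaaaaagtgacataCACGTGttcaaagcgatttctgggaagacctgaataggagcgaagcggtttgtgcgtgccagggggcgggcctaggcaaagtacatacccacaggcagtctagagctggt
Apaf1: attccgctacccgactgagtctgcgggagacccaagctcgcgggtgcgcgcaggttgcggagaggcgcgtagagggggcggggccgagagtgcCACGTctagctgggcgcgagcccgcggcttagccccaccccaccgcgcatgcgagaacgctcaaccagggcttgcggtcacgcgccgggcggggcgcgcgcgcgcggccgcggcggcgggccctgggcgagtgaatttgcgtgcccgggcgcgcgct
Endog: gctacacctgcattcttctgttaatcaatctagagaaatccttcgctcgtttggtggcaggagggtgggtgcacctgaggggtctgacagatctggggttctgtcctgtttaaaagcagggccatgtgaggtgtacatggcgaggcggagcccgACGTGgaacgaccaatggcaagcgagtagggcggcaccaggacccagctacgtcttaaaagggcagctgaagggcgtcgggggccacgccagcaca
Mdm2: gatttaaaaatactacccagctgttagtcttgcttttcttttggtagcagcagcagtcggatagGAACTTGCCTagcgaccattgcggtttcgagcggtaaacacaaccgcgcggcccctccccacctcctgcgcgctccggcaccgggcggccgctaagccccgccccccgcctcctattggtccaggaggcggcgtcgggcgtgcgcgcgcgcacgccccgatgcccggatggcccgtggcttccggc
ACGTG was found in the windows of Casp6 (170 bases before the start), Apaf1 (157), Endog (96) and Fas, where the palindrome CACGTG holds it on both strands (110 and 109). It was not found in that of Mdm2. Over the 33 members with a promoter entry, 10 (30.3%) held ACGTG, against 18.5% of 27025 genes. The 33 included Bax, Ripk1 and Trp53, and Bax was among the 10. Among the hypoxia check genes 9 of 17 windows (52.9%) held it, against 10 of 46 members' windows (21.7%) and 16.6% of 32851 windows in all. The windows also differed in composition, with a median GC content of 60.4% in members, 66.4% in the check genes and 52.4% in all. ACGTG itself contains CG, and the part of composition in these shares was not tested. The p53 half-site was searched by its standard degenerate form on both strands. It was found in 4 of 33 members (12.1%), against 8.2% of genes, and Bax and Trp53 were among the 4. A full site, a pair of half-sites at most 13 bases apart, was found in 0 members' windows and in 0.0639% of all windows. Among the other p53 targets and regulators described below, 10 of 44 windows (22.7%) held a half-site and 1 held a full site. By window, a half-site was in 8.7% of the members' windows and 7.13% of all. A match describes these letters only, and its absence says only that they are not in this window.

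The pro-survival BCL2 proteins did not pass the test in either direction. Mcl1, which holds BAK and BIM in check and has a short-lived protein, had the highest signal of the 4. Its signals were 597.7, 611 and 622.8 in hypoxia and 693, 763.7 and 634.8 in normoxia. All 3 hypoxia arrays were the lower ones, by a small margin (log2 difference -0.19, SE 0.12, 95% interval -0.46 to 0.09, adjusted p = 0.622, limma). Its 5 other probe sets ran from -0.24 to 0.32, with 3 of them above 0, so the direction depended on the probe set. Bcl2, the founding member of the family, gave -0.15 (95% interval -0.55 to 0.26). Bcl2l1, which encodes BCL-XL, gave -0.21 (95% interval -0.66 to 0.24), with hypoxia signals of 129.5, 190.6 and 132.8 overlapping normoxia signals of 149.4, 171.2 and 198.4. Bcl2l2, which encodes BCL-W, gave 0.03.

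Among the IAPs and c-FLIP, which block caspases or their activation, the tested members lay close to 0. Xiap, the direct caspase inhibitor of the family, had signals of 518, 572.7 and 574.2 in hypoxia and 534.1, 638.7 and 554.6 in normoxia. The arrays overlapped, with hypoxia holding the lowest signal and normoxia the highest (log2 difference -0.05, SE 0.13, 95% interval -0.34 to 0.24, adjusted p = 0.915, limma). Birc2, the ubiquitin ligase cIAP1, gave 0.02, and Cflar, the decoy of caspase-8, gave -0.17. Birc3, the related ligase cIAP2 and an NF-kappaB target, had a probe set below the filter with signals of 12.8, 7.1 and 3 in hypoxia and 1.1, 2 and 1.7 in normoxia. Those 3 hypoxia values lay above the normoxia values, at a brightness where MAS5 signals vary widely, and the second Birc3 probe set, also below the filter, gave -1.41.

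Mdm2 and Mdm4, the inhibitors of p53, both had positive differences. The Mdm2 signals were 464.4, 479.1 and 514.6 in hypoxia and 471.3, 224.4 and 251.5 in normoxia. Normoxia replicate 1 lay among the hypoxia arrays and the other normoxia arrays far below them. The means were 486 ± 25.8 and 316 ± 135 (SD, n = 3 each), a log2 difference of 0.70 (SE 0.25, 95% interval 0.15 to 1.26, adjusted p = 0.342, limma). Without normoxia replicate 1 the difference was 1.03 and passed the test (adjusted p = 0.0183, limma). A second Mdm2 probe set read 362.1, 444.4 and 423.4 in hypoxia and 356.6, 314.6 and 281.7 in normoxia. On that probe set the groups did not overlap, with a smaller difference of 0.37 (adjusted p = 0.415, limma). Mdm4 gave 0.18 (adjusted p = 0.782, limma).

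**Figure D2:**
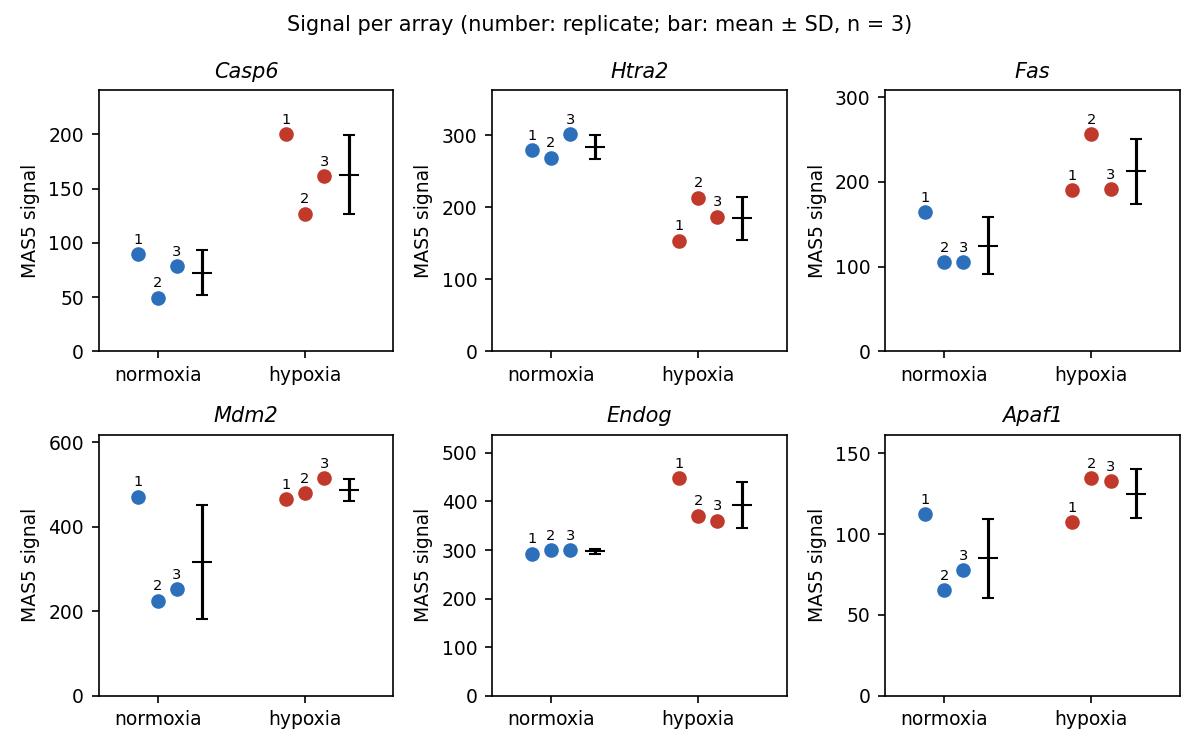
MAS5 signal on each array for the 6 members with an unadjusted p under 0.05; points are arrays, numbered by replicate, and bars are mean ± SD of 3 arrays, with axes that start at 0. Hypoxia and normoxia arrays do not overlap for Casp6, Htra2, Fas and Endog, and normoxia replicate 1 is the highest normoxia array for Casp6, Fas, Mdm2 and Apaf1.

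The membrane-permeabilising effectors had lower mean signals in hypoxia that did not pass the test. Bok, a BAX-like effector, had the higher mean signal of the tested pair, with 281.2, 282.7 and 224.8 in hypoxia and 248.6, 397.2 and 354 in normoxia. Its arrays overlapped through normoxia replicate 1 (log2 difference -0.32, SE 0.20, 95% interval -0.76 to 0.12, adjusted p = 0.595, limma). Without normoxia replicate 1 the difference was -0.52, and without normoxia replicate 2 it was -0.18, neither past the test (adjusted p = 0.22 and 0.902, limma). Bak1 spread widely within each condition, with signals of 105.5, 178.1 and 82.5 in hypoxia and 92.6, 382.3 and 191.5 in normoxia. Its log2 difference of -0.71 therefore came with a 95% interval from -1.73 to 0.31, and its second probe set gave -0.72.

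The BH3-only proteins are the initiators of the intrinsic pathway, and 7 of the 8 were tested. Bad, a BCL-XL antagonist controlled by phosphorylation, had the highest signal of the group, with 209.4, 226.8 and 189.2 in hypoxia and 249.9, 150.2 and 171.7 in normoxia. Its arrays overlapped (log2 difference 0.16, SE 0.20, 95% interval -0.30 to 0.62, adjusted p = 0.809, limma). The p53 target Bbc3, which encodes PUMA, read 58.9, 86 and 24.1 in hypoxia and 47.5, 67.9 and 45.9 in normoxia. Its arrays overlapped, with a wide interval (-0.09, 95% interval -1.02 to 0.84). Bcl2l11, which encodes BIM, gave 0.12 on its representing probe set. Its other probe sets above the filter gave -0.34, -0.43 and -0.20, so the direction depended on the probe set. Bid, the link from caspase-8 to mitochondria, gave 0.05, Hrk gave -0.09 and Bmf gave -0.63 (95% interval -1.76 to 0.50). Pmaip1, which encodes NOXA, was below the filter, with 4.5, 1.2 and 6.1 in hypoxia and 0.5, 4.4 and 0.6 in normoxia, and its arrays overlapped.

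Bik, a BH3-only protein of the endoplasmic reticulum, had 3 probe sets above the filter that differed in size of effect. The representing probe set gave -0.38 (adjusted p = 0.601, limma), with overlapping arrays. A second probe set read 84.3, 62.1 and 62.2 in hypoxia and 118, 123.8 and 114.5 in normoxia, a difference of -0.79 (unadjusted p = 0.0021, adjusted p = 0.134, limma). Its geometric mean signal was 90.4 against 92.7 for the representing one, so the choice between them rested on a small margin. Another probe set read 62.6, 60.6 and 35.4 in hypoxia and 67.3, 112.4 and 87.6 in normoxia, a difference of -0.77 (unadjusted p = 0.0221, adjusted p = 0.363, limma). On both of these probe sets every hypoxia array was below every normoxia array, and all 3 Bik probe sets were negative without passing the test. Bik was singled out after its values were seen.

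The 5 proteins released from mitochondria divided in direction. Cycs, cytochrome c, had the highest signal, with 6346.2, 5837.8 and 6027.4 in hypoxia and 6364.1, 6967.4 and 6507.9 in normoxia. The hypoxia arrays were all lower, but by little (log2 difference -0.12, SE 0.08, 95% interval -0.30 to 0.06, adjusted p = 0.62, limma), the narrowest interval of any tested member. Htra2, a mitochondrial protease that antagonises IAPs once released, read 153.5, 213.1 and 186.8 in hypoxia and 279.5, 268.9 and 301.6 in normoxia. Every hypoxia array was below every normoxia array. Its means were 184 ± 29.9 and 283 ± 16.7 (SD, n = 3 each), a log2 difference of -0.63 (SE 0.17, 95% interval -1.0002 to -0.26, adjusted p = 0.178, limma). On the second Htra2 probe set the arrays overlapped, with 136.1, 197.6 and 212.7 in hypoxia against 289.7, 152 and 267.8 in normoxia (log2 difference -0.35, adjusted p = 0.667, limma).

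Endog, the mitochondrial endonuclease G that cuts DNA in dying cells, went the other way. Its signals were 447.8, 370.2 and 360.5 in hypoxia and 292, 300.1 and 299.3 in normoxia. The normoxia arrays lay within a few signal units of each other and all below the hypoxia arrays, with means of 393 ± 47.8 and 297 ± 4.46 (SD, n = 3 each). The log2 difference was 0.40 (SE 0.14, 95% interval 0.08 to 0.71, adjusted p = 0.347, limma), and 0.20 on its second probe set (adjusted p = 0.753, limma). Diablo, the IAP antagonist SMAC, and Aifm1, the flavoprotein AIF, both gave -0.03 with overlapping arrays.

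The apoptosome and caspases held the largest difference among the tested members. Casp6 had signals of 200.4, 126.9 and 161.7 in hypoxia and 89.7, 49.5 and 78.8 in normoxia. The lowest hypoxia array exceeded the highest normoxia array, and the means were 163 ± 36.8 and 72.7 ± 20.8 (SD, n = 3 each). The log2 difference was 1.19 (SE 0.26, 95% interval 0.60 to 1.77, unadjusted p = 0.00113, adjusted p = 0.0971, limma). Casp6 passed in 2 of 19 alternative analyses, with array weights (adjusted p = 0.028, limma) and with the replicate number as a block (adjusted p = 0.0451, limma), and its adjusted p ran from 0.028 to 0.729 over all of them. Its second probe set was below the filter, with signals of at most 14.7, and gave -0.26.

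Apaf1, the scaffold of the apoptosome, read 107.5, 134.6 and 132.8 in hypoxia and 112.2, 65.2 and 77.7 in normoxia. As with Mdm2, normoxia replicate 1 lay among the hypoxia arrays. The means were 125 ± 15.2 and 85.0 ± 24.3 (SD, n = 3 each), a log2 difference of 0.59 (SE 0.23, 95% interval 0.08 to 1.09, adjusted p = 0.389, limma), and its second probe set gave 0.53 (adjusted p = 0.541, limma). Casp9, the caspase that APAF1 activates, gave -0.44 with overlapping arrays (adjusted p = 0.566, limma). Casp8, the initiator at death receptors, read 376.5, 336.7 and 356 in hypoxia and 401, 418.4 and 388.7 in normoxia, lower on every hypoxia array by a small margin (-0.18, 95% interval -0.47 to 0.11, adjusted p = 0.654, limma). Casp2, an initiator caspase activated through the PIDDosome, had the highest signal of the role, with 385.6, 419.8 and 400.6 in hypoxia and 343.6, 371 and 455.5 in normoxia. Its arrays overlapped (log2 difference 0.05, SE 0.15, 95% interval -0.28 to 0.38, adjusted p = 0.921, limma).

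Of the death receptors and their adaptors, Fas stood apart. Fas encodes the receptor of FAS ligand, and its signals were 189.9, 256.5 and 191.1 in hypoxia and 164.2, 105.3 and 105 in normoxia. All hypoxia arrays were higher, with normoxia replicate 1 the nearest to them. The means were 212 ± 38.1 and 125 ± 34.1 (SD, n = 3 each), a 1.72-fold difference or 0.79 on the log2 scale (SE 0.22, 95% interval 0.29 to 1.28, unadjusted p = 0.00531, adjusted p = 0.21, limma). Fadd, which joins FAS to caspase-8, was lower in mean signal, with 90, 158.6 and 123.8 in hypoxia and 179.4, 141.3 and 184.2 in normoxia. Its arrays overlapped (log2 difference -0.47, unadjusted p = 0.0666, adjusted p = 0.499, limma).

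Tradd, the adaptor of the TNF receptor, had the highest signal of this role, with 326.5, 309.7 and 226.8 in hypoxia and 235.9, 276.7 and 316.6 in normoxia. Its arrays overlapped (log2 difference 0.05, SE 0.19, 95% interval -0.37 to 0.47, adjusted p = 0.943, limma). A dim Tradd probe set just above the filter read 31, 23.8 and 19.8 in hypoxia and 3.2, 5 and 40.3 in normoxia, also with overlap (1.5006, adjusted p = 0.558, limma), and a further one gave 0.12. With the mean of all its probe sets the Tradd difference was 0.56 (adjusted p = 0.57, limma). Tnfrsf10b, the mouse TRAIL receptor, and Ripk3, the necroptosis kinase, were below the filter with overlapping arrays and signals of at most 16.2 and 13.5.

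The 35 measured members had 93 probe sets, and 26 of the members had several. Of these probe sets 66 passed the filter, and limma called 0 of them, against 137 of all 22518 kept probe sets. Of the 66, 10 had an unadjusted p under 0.05. The share of all kept probe sets at that level is not given here, and over all genes tested it was 12.4%. Beyond the representing ones, 35 passed the filter in 18 genes, and 23 of the 35 had the sign of the representing probe set. Of the 35, 4 had an unadjusted p under 0.05: both of those of Bik, the second of Mdm2, and 1 of Xiap, which read 12.2, 13.5 and 15.6 in hypoxia and 28.6, 22.9 and 23.5 in normoxia. That Xiap probe set gave -0.86 (adjusted p = 0.415, limma) where the representing one, at far brighter signal, gave -0.05.

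**Figure D3:**
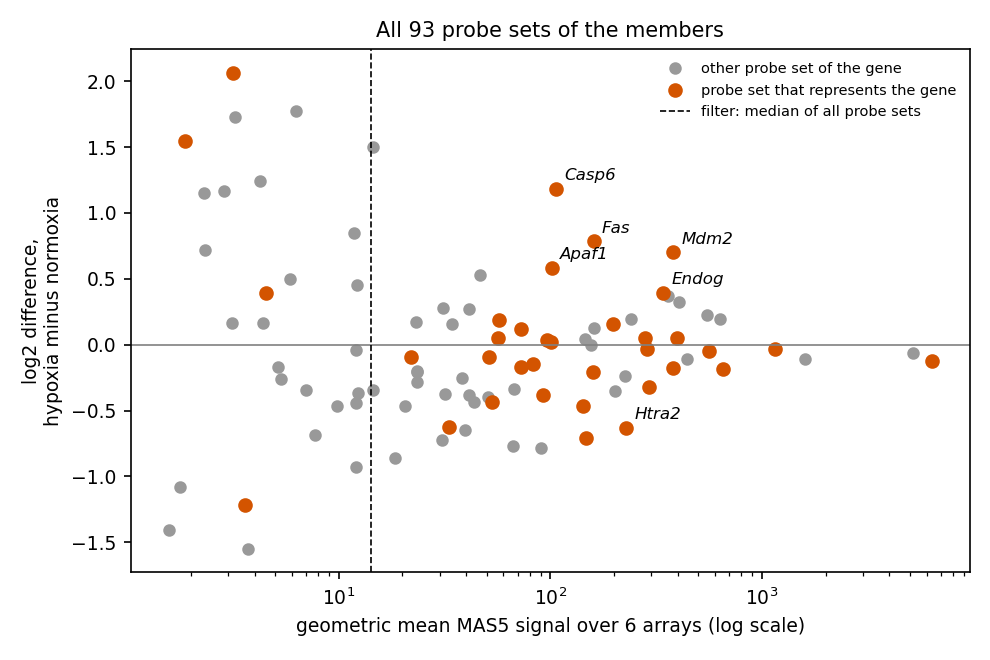
Log2 difference between hypoxia and normoxia against the geometric mean MAS5 signal (log axis) for all 93 probe sets of the members; orange points represent the gene, grey points are its other probe sets, and the dashed line is the filter at a signal of 14.1. The scatter is widest left of the filter, where Birc3 (2.06) and Pmaip1 (1.55) lie, and Casp6 (1.19) is the highest orange point to the right of it.

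The comparison of the sides that act for survival and for death was made per array. Each member's log2 signal was set against its own mean over the 6 arrays, and the mean over death genes was taken from the mean over survival genes. Over all 35 measured members this balance was 0.12, 0.08 and 0.14 in hypoxia and -0.10, -0.06 and -0.18 in normoxia. The groups did not overlap, with means of 0.11 ± 0.03 and -0.11 ± 0.06 (SD, n = 3 each), a shift of 0.22 towards survival genes. Below the filter lay Birc3 (2.06) on the survival side and Pmaip1 (1.55), Tnfrsf10b (-1.21) and Ripk3 (0.39) on the death side. Over all measured members the survival side differed by 0.22 and the death side by -4e-04. Over members above the filter they differed by 0.02 and -0.03, so the shift of 0.22 rested mostly on the Birc3 probe set.

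Over the 31 members above the filter the balance was 0.02, -0.06 and 0.12 in hypoxia and 0.03, -0.03 and -0.07 in normoxia. These arrays overlapped, and the shift was 0.05. Over the 14 measured BCL2 family genes alone it was -0.13, 0.01 and -0.02 in hypoxia and 0.20, -0.24 and 0.18 in normoxia, a shift of -0.09, smaller than the SD of the normoxia arrays (0.25). That direction rested on Pmaip1, which lies below the filter: over the 13 BCL2 family genes above it the balance was 0.003, -0.06 and 0.18 in hypoxia and 0.01, -0.15 and 0.01 in normoxia, a shift of 0.08 with overlapping arrays. The median log2 difference was -0.05 for the 9 tested survival genes and -0.06 for the 22 tested death genes, beside -0.04 over all genes tested.

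**Figure D4:**
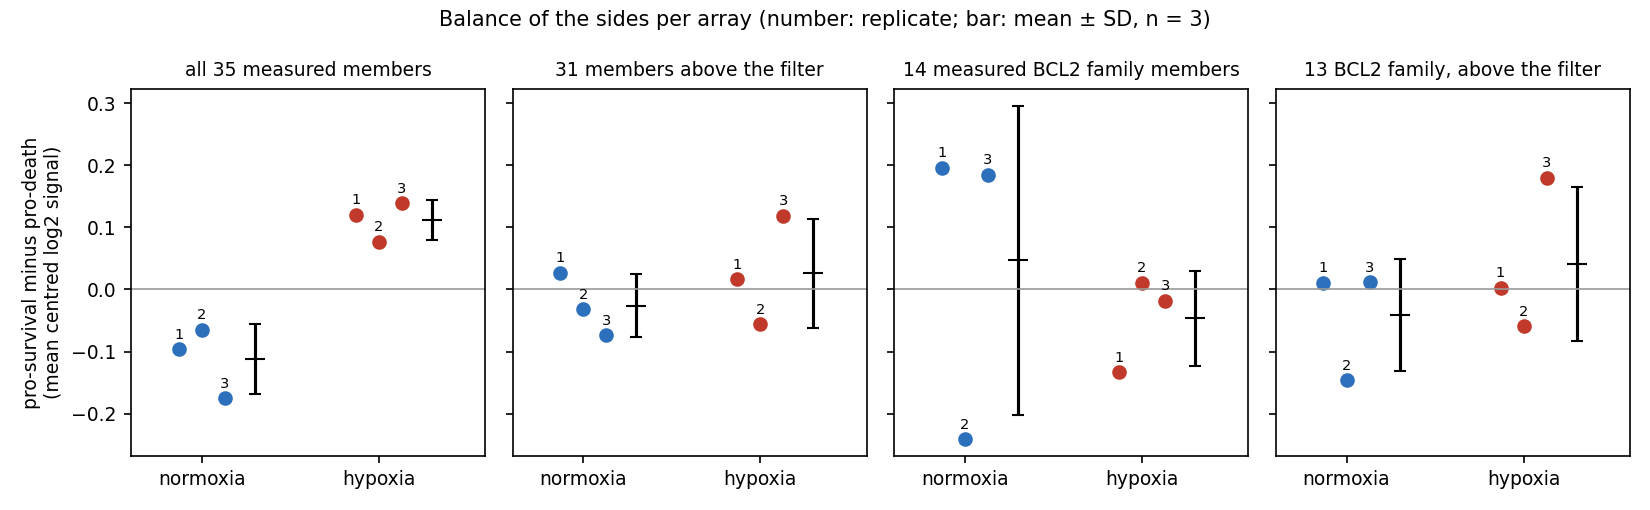
Balance of pro-survival over pro-death genes on each array, as mean centred log2 signal of one side minus the other, for all measured members, for members above the filter, for the measured BCL2 family and for the BCL2 family above the filter; points are arrays numbered by replicate and bars are mean ± SD of 3 arrays. Hypoxia and normoxia separate only over all 35 members (shift 0.22) and overlap in the other panels (shifts 0.05, -0.09 and 0.08).

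Among the other genes of the p53 pathway, Cdkn1a and Ddit4 rose in hypoxia. Of 43 other p53 targets and regulators 38 were tested, 2 rose (5.26%) and 0 fell in the limma fit, against 0.750% of all genes called in either direction. At an unadjusted p under 0.05, 15 were higher (39.5%, against 6.13% of all genes tested), and 1, Sesn1, was lower. The median log2 difference over the 38 was 0.24, beside -0.04 over all genes tested. In 19 of them (50%) the arrays of the groups did not overlap, 15 higher and 4 lower, against 18.1% of all genes tested. These genes were listed with earlier results of these data known, so their count is a description.

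Cdkn1a encodes the cell cycle inhibitor p21, and its signals were 1945.5, 2156.8 and 1407 in hypoxia and 865.9, 986.7 and 738 in normoxia. All hypoxia arrays were higher (log2 difference 1.08, SE 0.17, adjusted p = 0.0262, limma). The call was lost without hypoxia replicate 1 (adjusted p = 0.189, limma), hypoxia replicate 2 (0.107) or normoxia replicate 3 (0.144), and over all 19 alternatives the adjusted p ran from 0.00255 to 0.19. Ddit4 encodes REDD1, an inhibitor of mTORC1 that is a target of both p53 and hypoxia-inducible factors. It read 376.7, 282.1 and 230 in hypoxia and 122.1, 116 and 119.3 in normoxia, again without overlap (1.28, SE 0.19, adjusted p = 0.0186, limma). Its call was lost without hypoxia replicate 1 (0.109), hypoxia replicate 2 (0.0772), normoxia replicate 2 (0.0735) or normoxia replicate 3 (0.102).

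Beside these, 13 genes were higher at the unadjusted level without passing the test. They were Ccng1, Gadd45b, Gadd45g, Btg2, Zmat3, Trp53inp1, Plk2, Eda2r, Ei24, Polk, Ppp1r13l, Chek2 and Siva1. Ccng1, the p53 target cyclin G1, had the brightest signals of the 13, with 3071.5, 2980.6 and 3466.3 in hypoxia and 2483.7, 1689.6 and 1653.2 in normoxia (0.73, adjusted p = 0.0911, limma). Btg2, an antiproliferative p53 target, gave 1.08 (adjusted p = 0.125, limma), and Plk2, a polo-like kinase, gave 1.40 (adjusted p = 0.307, limma), with normoxia replicate 1 at 125.7 inside the hypoxia range.

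One normoxia array moved with these genes. Normoxia replicate 1 was the highest of the 3 normoxia arrays in 12 of the 15 p53 genes higher at the unadjusted level (80%) and in 4 of the 5 members (80%), against 51.2% of the 695 genes that were higher at that level. Over all 38 tested p53 genes, whatever their p, it was the highest in 24 (63.2%), against 38% of all genes tested. Its part in the result was not tested beyond leaving it out: without it Mdm2 passed, and the count of other p53 genes stayed between 11 and 18 in every alternative. That count was 11 without normoxia replicate 2, where 4.51% of all genes were higher at the unadjusted level. It was 18 with array weights, where 8.45% were.

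**Figure D5:**
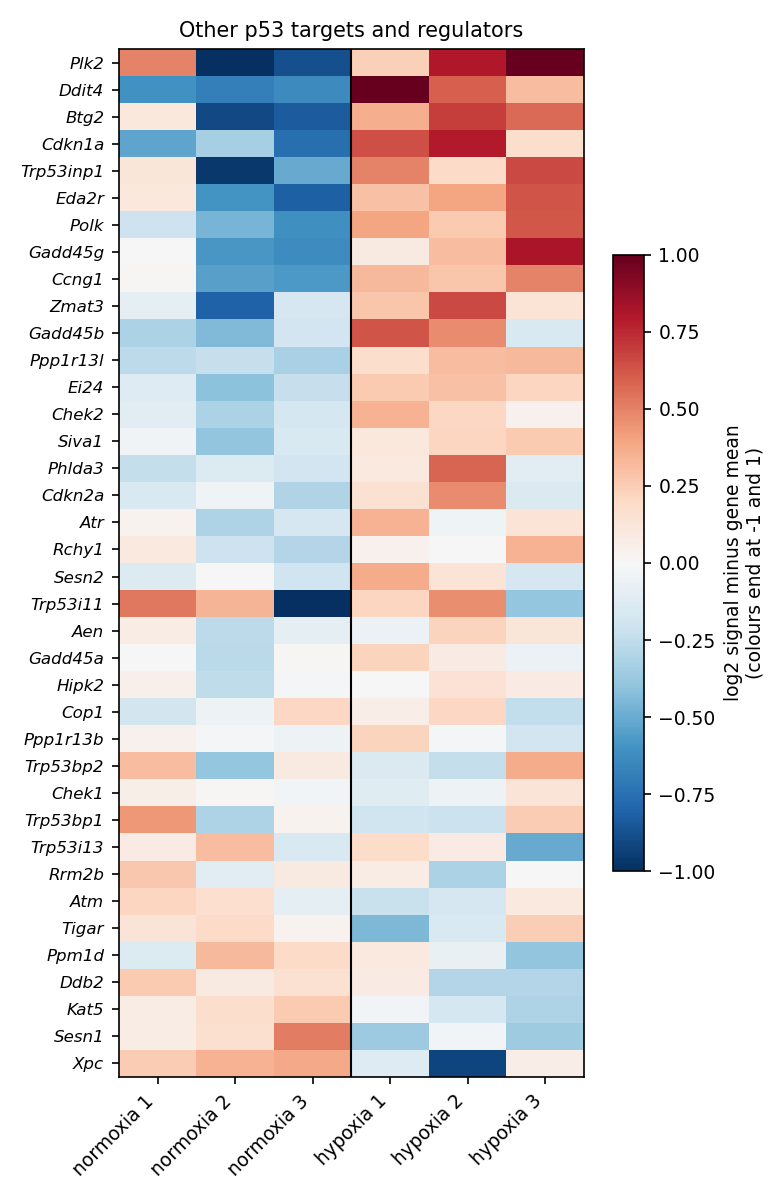
Log2 signal minus the gene's mean over 6 arrays (colours end at -1 and 1) for the 38 tested p53 targets and regulators outside the members, ordered by log2 difference; columns are the 3 normoxia and 3 hypoxia arrays. Most upper genes are red on the hypoxia arrays and blue on normoxia replicates 2 and 3, while normoxia replicate 1 is pale or red in several of them, among them Plk2, Btg2 and Eda2r.

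The remaining relatives of the members were mostly near 0. Of 5 tested other caspases 0 were called by limma, and 2 had an unadjusted p under 0.05 (40%, against 12.4% of all genes tested). Casp14, the caspase of cornifying skin, gave 0.86, and Casp12, a caspase of the endoplasmic reticulum, gave -0.42. Of 16 tested other BCL2 family and BCL2 binding proteins 1 rose (6.25%, against 0.750% of all genes called in either direction). This was Bnip3, a mitochondrial BH3-type protein that drives mitophagy and is a target of hypoxia-inducible factors. It read 4282.7, 3489.6 and 3250.9 in hypoxia and 341.8, 811.8 and 452.8 in normoxia, without overlap (2.87, adjusted p = 0.00138, limma). Bnip1 gave 0.77 (adjusted p = 0.112, limma) and Bcl2l13, another mitophagy receptor, gave -0.41 (adjusted p = 0.39, limma).

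Of 4 tested other IAPs limma called 0, and 0 had an unadjusted p under 0.05, against 12.4% of all genes tested. Birc5, survivin, gave 0.15. Of 13 tested other death receptor and necroptosis genes 0 were called, and 2 were higher at the unadjusted level (15.4%, against 6.13% of all genes tested). Tnfaip3, the ubiquitin-editing enzyme A20 and an NF-kappaB target like Birc3, read 107.4, 60.4 and 102.3 in hypoxia and 26.1, 35.1 and 16 in normoxia. Its groups did not overlap, and its log2 difference of 1.83 lay close to the threshold (adjusted p = 0.0533, limma), passing in 7 of 18 alternatives, with a range from 0.0112 to 0.273. Dapk2, a death-associated kinase, gave 0.43 (adjusted p = 0.349, limma). Tnfaip3 and these unadjusted examples were named after their values were seen.

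All 10 atrial cardiomyocyte markers passed the filter, among them Myl7, Myl4 and Nppa, and their summed signal was 34663 to 38030 in hypoxia and 36776 to 38601 in normoxia. Fibroblast (3 of 7 above the filter), endothelial (1 of 6) and leukocyte (2 of 6) markers summed to at most 245.5, with Pecam1, Ptprc and Dcn at most at 19.9 on every array. The brightest of these lists were Kdr, at 49.3 to 102.5, Col3a1, at 53.2 to 93.5, Col1a1, at 11.2 to 86.9, and Csf1r, at 29.8 to 70.3, each with overlapping conditions. The macrophage marker Cd68 read 39.3, 49.2 and 43.4 in hypoxia and 25.3, 18.8 and 16.5 in normoxia, without overlap (1.14, unadjusted p = 0.00287, adjusted p = 0.157, limma), and its part in the members' values was not tested. Of the smooth muscle markers 3 of 5 passed, with Acta2 and Tagln bright and Myh11 and Lmod1 below the filter, and limma called 0 markers of any list. Of the 19 markers above the filter 7 had an unadjusted p under 0.05 (36.8%, against 12.4% of all genes tested): Nppa, Sln, Cnn1, Tagln and Cd68 were higher in hypoxia, and Pln and Tnni3 were lower. In bulk RNA, fewer cells of a type and less RNA per cell cannot be told apart. Signals correlated at 0.952 to 0.970 between arrays of a condition.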

How the data were processed

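The authors deposited 1 linear intensity per probe set and array for 45037 probe sets. They were made with MAS5, per the submitters' processing notes, in a version and with settings not given in the sources used. All 6 arrays had a mean of 99.5 after the top and bottom 2% were trimmed, and no scaling was added. Detection calls were not used here, and precision is limited by the number of arrays.

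For the fits, 10 zeros became 0.1, the smallest positive signal, before the log2 transform. A probe set was kept where its mean log2 signal exceeded the median probe set's (22518, a geometric mean signal of 14.1). Conditions were compared with limma 3.58.1 in R 4.3.3 (lmFit, eBayes with trend, two-sided, no covariates), with Benjamini-Hochberg adjustment over all kept probe sets and calls at an adjusted p under 0.05. Intervals are 95% intervals of that fit; the fit's differences and calls, not its intervals, were tested on simulated data. An exact permutation test of 3 against 3 arrays cannot go below p = 0.1, so none is given.

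Names come from the platform annotation of 2016: 34945 probe sets have 1 symbol, 932 several and 9160 none. A gene is represented by its 1-symbol probe set with the highest mean log2 signal. The members and gene lists were chosen with earlier results of these data known. Values on every array are given for members with an unadjusted p under 0.05 and for the brightest member of each role, with further members added to show overlap; other genes are named where they passed, with Bnip3, Cdkn1a and Slc2a1 in any case and a few more chosen after their values were seen. Same-numbered arrays did not deviate together (correlations -0.08, 0.21 and -0.14), so replicate numbers were not taken as pairs. Alternatives changed the normalization, offset, filter, variance model, array weights, probe set choice and arrays included.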

Additional observations from a re-analysis of the deposited data

How the results depend on the processing

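Of the 31 members tested, the number called stayed at 0 under 16 of 19 alternatives. It was 3 with array weights (Casp6 at an adjusted p of 0.028, Fas at 0.0467 and Htra2 at 0.0478) and 1 with the replicate block (Casp6, 0.0451). Leaving out each array gave 0 to 1, the 1 being Mdm2 without normoxia replicate 1. The members with an unadjusted p under 0.05 numbered 3 to 8 over the left-out arrays. There were 3 without normoxia replicate 3, where 7.85% of all genes reached that level, and 8 without normoxia replicate 1, where 17% did. Over all genes, 85 were called; this became 277 with array weights, 9 without the variance trend, 63 with the replicate block and 24 to 128 over the left-out arrays (24 without hypoxia replicate 1, 37 without hypoxia replicate 2, 52 without normoxia replicate 2, 26 without normoxia replicate 3 and 128 without normoxia replicate 1). Median centring moved the median of all genes from -0.04 to 0.07 and the calls from 75 higher and 10 lower to 113 and 4; with it the median over all measured pro-survival members went from -0.01 to 0.10 and that of pro-death members from -0.03 to 0.0778. The balance of 0.22 over all measured members was 0.15 with an offset at the 20th percentile of signals. It was -0.0508 with the mean of all probe sets and 0.12 without x_at and s_at probe sets. It was 0.0527 over members above the filter and 0.17 without Mdm2 and Mdm4. Over the BCL2 family alone it was -0.0935, and over that family's members above the filter 0.0822. Among differences near 0, Mcl1 went to 0.0342 with the mean of all probe sets, Xiap to 0.0603 with median centring (-0.10 to 0.0265 over the left-out arrays), Casp2 to -0.0523 with array weights (-0.0331 to 0.17), and Tradd to 0.56 with the mean of all probe sets (-0.059 to 0.21). Without normoxia replicate 2 Bok was -0.18, Bad 0.0052 and Mcl1 -0.12; without normoxia replicate 1 Bok was -0.52 and Bad 0.37. Without the variance trend Cdkn1a (adjusted p = 0.19), Ddit4 (0.118) and Bnip3 (0.055) lost their calls in limma. Htra2 has no value without s_at probe sets, and Tnfaip3 none with the filter at the 75th percentile. The alternatives for the counts at the unadjusted level, for the BCL2 family above the filter and for genes outside the members were chosen after seeing the data. The cause of these changes was not tested, and signals near background limit Birc3, Pmaip1, Tnfrsf10b and Ripk3.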
